A study of Mus musculus with 6 samples.

Results

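The 36 genes described here encode the core machinery of autophagy in the mouse together with 5 of its cargo receptors. They were given as a list of gene symbols, drawn up with earlier results of these data known, and each symbol matched 1 Ensembl ID of the deposited count table, which holds 25663 IDs. All 36 were among the 13468 genes with enough counts to be tested. The RNA came from neutrophils of C57BL/6 mice that were sorted from bone marrow as CD45+CD11b+Ly6G+ cells before culture, and it was read by RNA sequencing. In the LPS+resveratrol group (n = 3) the cells were kept for 6 hours with lipopolysaccharide (LPS), a bacterial cell wall component that activates neutrophils, and with resveratrol, a plant polyphenol, at an amount that the labels write as 25 μmol. In the LPS group (n = 3) they were kept for 6 hours with LPS alone. Both groups thus received LPS, and no sample without LPS was analysed here. The series text speaks of duplicates, whereas 3 samples carry each label. Nothing in the labels ties the samples to separate mice, so the p-values measure only how far these libraries spread, and that spread may be technical. The title sets the comparison within liver ischemia-reperfusion injury and ERK signalling. The values are transcript levels, and neither autophagosomes nor protein were measured in the files used here.

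Autophagy wraps part of the cytoplasm in a double membrane, the autophagosome, which then fuses with a lysosome so that the contents are broken down. The ULK1 kinase complex starts the process, a class III phosphatidylinositol 3-kinase (PI3-kinase) complex marks the membrane, and WIPI proteins, ATG9A, the ATG2 proteins and VMP1 supply it with lipid. Ubiquitin-like conjugation reactions then fix proteins of the LC3 and GABARAP family to the membrane, where cargo receptors such as p62 bind them. In neutrophils the pathway is known for its part in maturation in the bone marrow and in the release of granule contents.

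Total counts were between 18141352 and 19928153 per library, and levels are given as CPM, the count scaled to a common library total, on totals adjusted by TMM, a factor per library that aligns the bulk of genes. LPS+resveratrol replicate 1 stood apart: its correlation of log2 CPM with the other 5 libraries lay between 0.954 and 0.964, while each of those had a highest correlation of at least 0.99. Results are therefore given over all 6 libraries and also over 5 libraries, without LPS+resveratrol replicate 1. Neutrophil markers summed to between 54812 and 81766 CPM in LPS+resveratrol libraries and to between 67314 and 72428 CPM in LPS libraries, with all 13 detected. The lowest sum was that of LPS+resveratrol replicate 1, while replicates 2 and 3 had 80509 and 81766 CPM, above all LPS libraries. S100a8 had 2579 CPM in replicate 1 and 11425 and 11211 CPM in replicates 2 and 3. S100a9, Camp and Ly6g were also at their lowest of all 6 libraries in replicate 1. Ptprc, Cxcr2, Mmp8, Mmp9 and Csf3r were at their highest there, so the neutrophil markers did not fall together in that library. Ptprc, Mmp8, Mmp9, Ltf, Ngp and Retnlg were higher in every LPS+resveratrol library than in any LPS library, and the other neutrophil markers overlapped. The 11 monocyte or macrophage markers summed to between 2193 and 2351 CPM with LPS+resveratrol and to between 2077 and 2105 CPM with LPS. Among them, Adgre1 had between 1288 and 1454 CPM with LPS+resveratrol and between 1007 and 1070.3 CPM with LPS, and carried the higher sum. Csf1r, Cd68 and Cx3cr1 lay the other way, with no overlap between the groups. Csf1r had between 758 and 824 CPM with LPS+resveratrol and between 902 and 935 CPM with LPS. Cd68 had between 41.9 and 46.2 CPM with LPS+resveratrol and between 83.3 and 85.8 CPM with LPS. Cx3cr1 had between 23.6 and 29.6 CPM with LPS+resveratrol and between 35.3 and 38.8 CPM with LPS, and C1qc between 0.438 and 1.03 CPM with LPS+resveratrol and between 0.436 and 0.593 CPM with LPS. The 8 T and NK cell markers, of which 7 were tested, summed to between 11.01 and 12.04 CPM with LPS+resveratrol and to between 16.7 and 18.5 CPM with LPS. The 5 B cell markers summed to between 87.8 and 132.8 CPM with LPS+resveratrol and to between 141.2 and 151.8 CPM with LPS. The 6 markers of eosinophils, basophils and mast cells summed to between 106.9 and 133.3 CPM with LPS+resveratrol and to between 150.03 and 156.4 CPM with LPS. The sums of the 6 erythroid markers, of which 5 were tested, and of the 5 dendritic cell markers overlapped between the groups. No listed marker was at 0 in every library. Over 6 libraries the groups therefore differed in the sums of 4 of these lists, and over 5 libraries they differed in the neutrophil sum as well. The part of that in the autophagy genes was not tested. In bulk RNA, fewer cells of a type and less RNA per cell cannot be told apart.

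With LPS+resveratrol replicate 1 left out, transcripts of all 5 genes of the ULK1 complex, of all 5 cargo receptors and of LC3B were higher with resveratrol, while Gabarap, which encodes a relative of LC3, was lower. Over 6 libraries 1 of the 36 genes passed, Calcoco1, and it was higher (Benjamini-Hochberg adjusted p under 0.05 in the quasi-likelihood test of edgeR). Among all tested genes 0.668% were called higher and 1.17% lower in that comparison. Over 5 libraries 20 of the 36 were higher, 1 was lower and 15 did not pass, against 12.1% higher and 13.3% lower among all tested genes. These shares were not matched to the 36 genes by transcript length, with which the calls among all tested genes varied. The median log2 fold change of the 36 genes was 0.29 over 6 libraries and 0.26 over 5, beside −0.0040 and −0.0071 for all tested genes. Of the 36, 29 had a positive log2 fold change in each comparison, and 26 had one in both. Among all tested genes 49.5% had a positive one over 6 libraries and 48.9% over 5. The 2 groups did not overlap for 17 genes that were higher with LPS+resveratrol and 1 that was lower, where 17.3% and 15.9% of all tested genes were so placed. At an unadjusted p under 0.05, 15 of the 36 were higher and 0 lower over 6 libraries (10.7% and 9.18% of all tested genes). Leaving out any 1 of the other 5 libraries in place of LPS+resveratrol replicate 1 gave 0 calls with edgeR, among the 36 and among all tested genes. In those fits 6 to 14 of the 36 were higher at an unadjusted p under 0.05. Of the 13468 tested genes, 1564 to 2721 were at that p in either direction. With 6 libraries edgeR estimated a biological coefficient of variation of 19.8%, and with 5 libraries one of 7.43%.

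**Figure D1:**
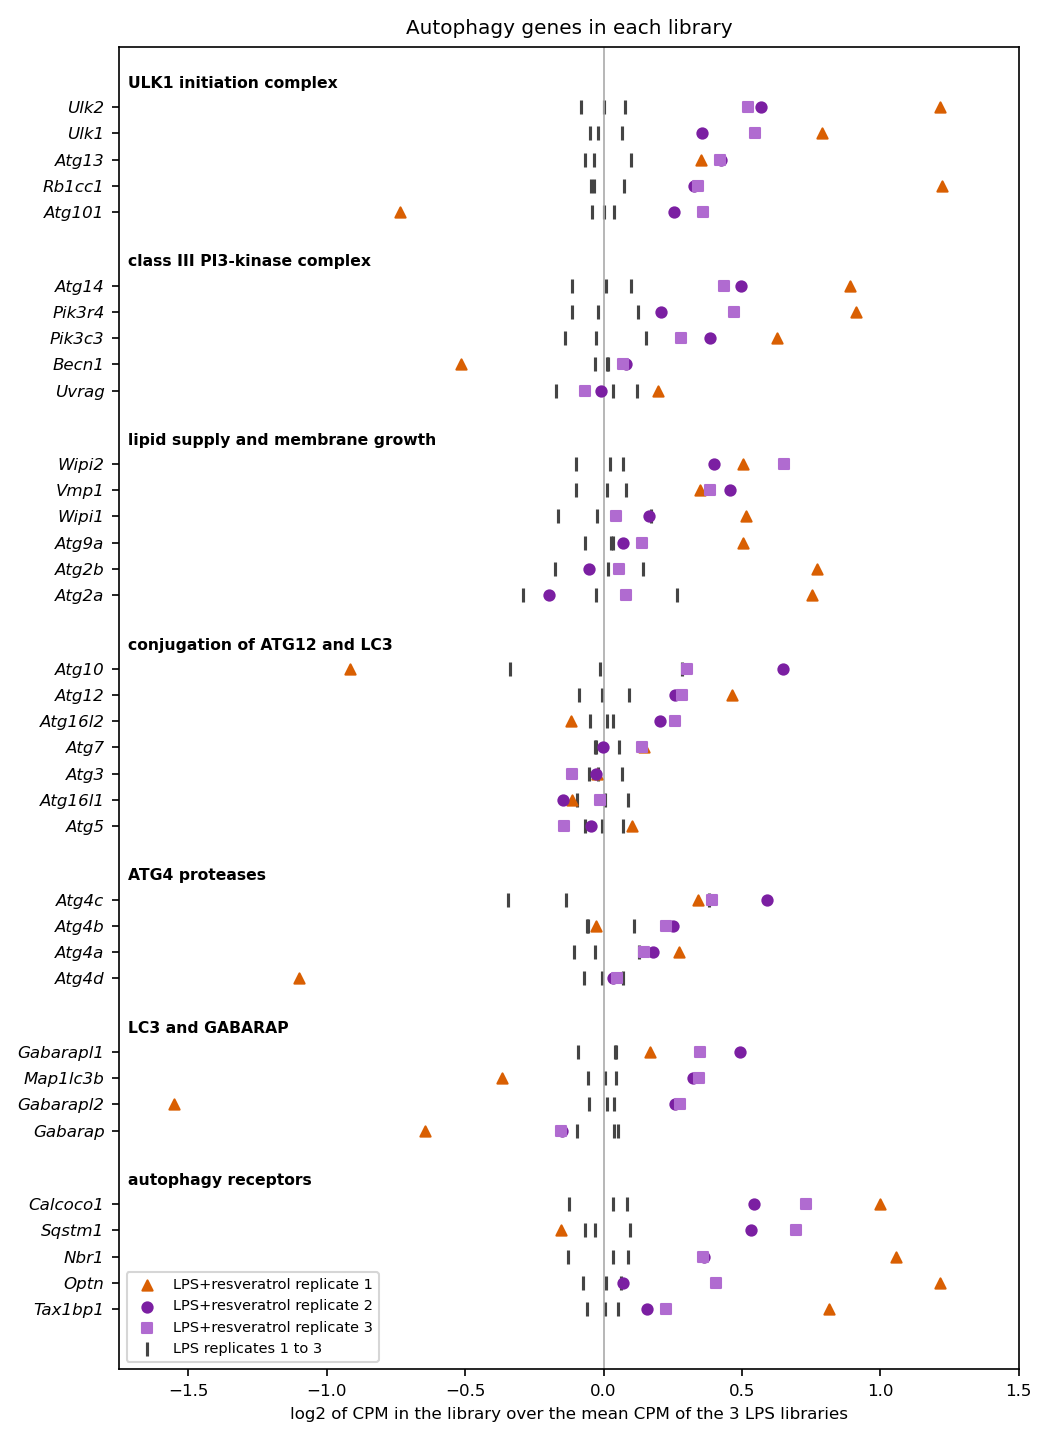
Each of the 36 autophagy genes in each library, as the log2 of its CPM over the mean CPM of the 3 LPS libraries (horizontal axis), grouped by role. Orange triangles are LPS+resveratrol replicate 1, purple symbols LPS+resveratrol replicates 2 and 3, and black ticks the 3 LPS libraries; replicate 1 lies far to the right for Rb1cc1 and Optn and far to the left for Gabarapl2 and Atg4d.

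The ULK1 complex takes up starvation and energy signals and phosphorylates the factors that follow it. All 5 of its genes were higher over 5 libraries, and 0 passed over 6. Ulk1, the kinase itself (ENSMUSG00000029512), was at 271, 201 and 229 CPM in LPS+resveratrol replicates 1 to 3, against 152, 155 and 164 CPM in LPS replicates 1 to 3. Each LPS+resveratrol library lay above each LPS library. The log2 fold change was 0.57 ± 0.13 (SE; edgeR adjusted p = 0.0807) over 6 libraries and 0.45 ± 0.053 (adjusted p = 5.63e-08) over 5. Ulk2, its close relative, had 74.4, 47.5 and 46.03 CPM in the LPS+resveratrol libraries and 33.8, 32.03 and 30.3 CPM in the LPS libraries. The groups were again separate, with replicate 1 far above the other LPS+resveratrol libraries, and the log2 fold change was 0.81 ± 0.20 over 6 libraries (edgeR adjusted p = 0.0953) and 0.54 ± 0.077 over 5 (adjusted p = 8.45e-07). Summed per kilobase of transcript, the pair stood at 74.5, 53.9 and 60.1 CPM per kb with LPS+resveratrol and at 40.4, 40.8 and 42.6 CPM per kb with LPS. Ulk2 made up 17.4, 15.4 and 13.3% of that sum with LPS+resveratrol and 14.6, 13.7 and 12.4% with LPS, so the shares of the 2 kinases overlapped between groups.

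Among the partners of the kinase, Atg13, the adaptor that links it to the complex, was at 40.1, 42.2 and 42.1 CPM with LPS+resveratrol and 30.01, 33.7 and 30.7 CPM with LPS. Its 3 LPS+resveratrol libraries lay close together and above all LPS libraries, replicate 1 included. The log2 fold change of Atg13 was 0.40 ± 0.10 over 6 libraries (edgeR adjusted p = 0.102) and 0.41 ± 0.078 over 5 (adjusted p = 7.48e-05). Rb1cc1, the large scaffold FIP200, had 323, 174 and 175 CPM with LPS+resveratrol and 146, 135 and 134 CPM with LPS. Replicate 1 lay far above replicates 2 and 3, which in turn lay above all LPS libraries, and the log2 fold change was 0.69 ± 0.24 over 6 libraries (edgeR adjusted p = 0.192) and 0.32 ± 0.051 over 5 (adjusted p = 5.12e-06). Atg101, which stabilises ATG13, had 27.8, 55.3 and 59.5 CPM with LPS+resveratrol and 46.4, 47.6 and 45.1 CPM with LPS. Here replicate 1 was the lowest of all 6 libraries while replicates 2 and 3 were the highest, with log2 fold changes of 0.036 ± 0.26 over 6 libraries (edgeR adjusted p = 0.949) and 0.30 ± 0.072 over 5 (adjusted p = 0.00155).

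The 250 bases before the start site of RefSeq transcripts (build GRCm38.p6) are shown for genes that were among the 6 with the smallest p over 6 libraries and held a searched motif, and below for Calcoco1. The motifs were the antioxidant response element core TGACNNNGC, bound by NRF2, the E-box CACGTG, and TCACGTGA, the E-box with the flanks of the element that TFEB binds, which overlaps the E-box. Both strands were searched, and capitals mark the match. The antioxidant core was in 10.2% of 32851 such windows and in 6 of the 37 windows of autophagy genes. These lay at 4 of the 31 autophagy genes with a window, namely Atg13, Tax1bp1, Ulk2 and Vmp1. The E-box was in 6.02% of all windows and in 3 of the 37, at Atg3, Atg5 and Atg7. Its longer form was in 0.785% of all windows and in 1 of the 37, at Atg3. Ulk1 and Wipi2 held none of these letters in their windows. A match is a string of letters and not a measured binding site. In Ulk2 (chr11:61855093-61855342, minus strand) the match lies at positions −17 to −9 before the start, and in Atg13 (chr2:91710593-91710842, minus strand) at −242 to −234 on the other strand.
Ulk2: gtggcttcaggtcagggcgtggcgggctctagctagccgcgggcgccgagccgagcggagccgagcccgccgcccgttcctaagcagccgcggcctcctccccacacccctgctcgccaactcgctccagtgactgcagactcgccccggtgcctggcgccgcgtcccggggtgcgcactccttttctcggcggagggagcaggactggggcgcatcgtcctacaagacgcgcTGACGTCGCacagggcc
Atg13: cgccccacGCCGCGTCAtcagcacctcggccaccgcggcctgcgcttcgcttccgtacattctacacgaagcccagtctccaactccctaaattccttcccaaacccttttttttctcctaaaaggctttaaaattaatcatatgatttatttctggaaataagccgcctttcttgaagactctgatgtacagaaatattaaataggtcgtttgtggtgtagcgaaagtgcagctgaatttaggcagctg

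The class III PI3-kinase complex makes the lipid phosphatidylinositol 3-phosphate at the site of assembly. Its catalytic subunit Pik3c3 and its regulatory subunit Pik3r4 were higher over 5 libraries, and the other 3 of 5 genes did not pass. Pik3c3 had a log2 fold change of 0.32 ± 0.085 over 5 libraries (edgeR adjusted p = 0.00374) and 0.44 ± 0.14 over 6 (adjusted p = 0.156), and Pik3r4 had 0.34 ± 0.11 and 0.56 ± 0.19 (adjusted p = 0.0192 and 0.184). Becn1, which encodes the scaffold Beclin 1, was at 58.9, 89.05 and 88.2 CPM with LPS+resveratrol and 85.1, 82.3 and 84.9 CPM with LPS. Replicates 2 and 3 lay just above the LPS libraries and replicate 1 far below them, and the log2 fold change was −0.095 ± 0.17 over 6 libraries and 0.067 ± 0.058 over 5 (edgeR adjusted p = 0.776 and 0.44). Becn1 shares 43.9% of its exon bases with Cntd1 on the opposite strand, and the table holds 106 counts for Cntd1 over all libraries. Atg14 and Uvrag encode the subunits that send the complex to autophagosomes or to endosomes. Atg14 was at 5.53, 4.21 and 4.03 CPM with LPS+resveratrol and 2.995, 2.75 and 3.19 CPM with LPS, separate groups at a low level, and it did not pass over 6 or 5 libraries (log2 fold change 0.62 ± 0.19 and 0.46 ± 0.21, edgeR adjusted p = 0.155 and 0.111). Uvrag had log2 fold changes of 0.045 ± 0.13 and −0.045 ± 0.089 (adjusted p = 0.866 and 0.767), so its sign turned when replicate 1 was left out.

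Of the 6 genes for lipid supply and membrane growth, Wipi2 and Vmp1 were higher over 5 libraries. Wipi2, which reads phosphatidylinositol 3-phosphate and recruits ATG16L1, had 88.2, 82.2 and 97.9 CPM with LPS+resveratrol and 63.3, 65.3 and 58.2 CPM with LPS. The groups were well apart and replicate 1 lay between replicates 2 and 3, so the log2 fold change was 0.52 ± 0.11 over 6 libraries (edgeR adjusted p = 0.07) and 0.52 ± 0.069 over 5 (adjusted p = 5.97e-07). Vmp1, a scramblase of the endoplasmic reticulum, had 199, 215 and 204 CPM with LPS+resveratrol and 158, 146 and 165 CPM with LPS. Again no library of one group lay within the other, with log2 fold changes of 0.40 ± 0.10 (edgeR adjusted p = 0.0955) and 0.41 ± 0.052 (adjusted p = 1.15e-07) over 6 and 5 libraries. The windows before all 3 RefSeq start sites of Vmp1 held the antioxidant core. The first (window chr11:86683837-86684086, minus strand), shown here, has it at −168 to −160 on the other strand, marked in capitals.
Vmp1: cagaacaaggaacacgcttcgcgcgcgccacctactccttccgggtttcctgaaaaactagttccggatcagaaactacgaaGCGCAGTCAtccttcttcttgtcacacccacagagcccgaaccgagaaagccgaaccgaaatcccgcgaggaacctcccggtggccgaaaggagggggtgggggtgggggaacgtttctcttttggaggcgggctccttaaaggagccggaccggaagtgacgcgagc
The other 4 genes of this role did not pass in either comparison. Wipi1, a relative of Wipi2, had log2 fold changes of 0.26 ± 0.16 and 0.10 ± 0.087 over 6 and 5 libraries, and Atg9a, the lipid scramblase carried on vesicles, had 0.25 ± 0.14 and 0.10 ± 0.066. Atg9a shares 31.8% of its exon bases with Gm29253 on the same strand, which has no entry among the counted genes. The lipid transfer proteins Atg2a and Atg2b had 0.27 ± 0.26 and 0.31 ± 0.23 over 6 libraries, and −0.057 ± 0.15 and −0.0068 ± 0.10 over 5.

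Of the 7 genes that join ATG12 to ATG5 and LC3 to lipid, 2 were higher over 5 libraries and 5 did not pass, with a median log2 fold change of 0.063. Atg12, the ubiquitin-like protein, had a log2 fold change of 0.26 ± 0.072 over 5 libraries (edgeR adjusted p = 0.00517) and 0.34 ± 0.11 over 6 (adjusted p = 0.167). Atg16l2, a relative of the adaptor Atg16l1, had 0.22 ± 0.074 and 0.12 ± 0.13 (adjusted p = 0.0233 and 0.608). Atg5, to which ATG12 is joined, was at 34.6, 31.3 and 29.2 CPM with LPS+resveratrol and 33.9, 32.1 and 30.8 CPM with LPS. The groups overlapped, and the log2 fold change of Atg5 was −0.026 ± 0.11 over 6 libraries and −0.10 ± 0.081 over 5 (edgeR adjusted p = 0.914 and 0.395). Atg7, the activating enzyme, and Atg3, the enzyme that hands LC3 to its lipid, had log2 fold changes of 0.063 ± 0.054 and −0.077 ± 0.059 over 5 libraries, and Atg16l1 had −0.086 ± 0.08. None of these 3 passed. Atg10, the enzyme that hands ATG12 to ATG5, was the scarcest of the 36 genes, with 0.547, 1.62 and 1.27 CPM with LPS+resveratrol and 0.817, 1.02 and 1.26 CPM with LPS. Its log2 fold change was 0.15 ± 0.42 over 6 libraries and 0.47 ± 0.35 over 5, with adjusted p = 0.862 and 0.365 in edgeR and 10 to 30 counts per library. Neither comparison called it.

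ATG4 proteases trim LC3 and GABARAP proteins before conjugation and free them afterwards. Atg4b, the most abundant of the 4 in CPM, was higher over 5 libraries, at a log2 fold change of 0.23 ± 0.07 (adjusted p = 0.0135 in edgeR), and had 0.15 ± 0.12 over 6 (adjusted p = 0.498). Atg4a, Atg4c and Atg4d did not pass, with 0.15 ± 0.13, 0.48 ± 0.25 and 0.034 ± 0.077 over 5 libraries. For Atg4d the LPS+resveratrol libraries had 17.2, 37.7 and 38.1 CPM, replicate 1 first, and the LPS libraries had 35.1, 36.7 and 38.6 CPM. It shares 19.3% of its exon bases with Kri1 on the opposite strand (2844 counts in all).

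In the LC3 and GABARAP family, 3 of 4 genes were higher and Gabarap was lower over 5 libraries, and 0 passed over 6. Map1lc3b, which encodes LC3B, the usual marker protein of autophagosomes (ENSMUSG00000031812), was at 142, 229 and 233 CPM with LPS+resveratrol and 189, 184 and 176 CPM with LPS. Replicates 2 and 3 lay above every LPS library and replicate 1 below them all, and the log2 fold change was 0.14 ± 0.19 over 6 libraries (edgeR adjusted p = 0.709) and 0.33 ± 0.048 over 5 (adjusted p = 1.63e-06). Gabarap had 343, 484 and 482 CPM with LPS+resveratrol and 556, 550.4 and 502 CPM with LPS. All 3 LPS+resveratrol libraries lay below the LPS libraries, with log2 fold changes of −0.30 ± 0.15 (edgeR adjusted p = 0.318) and −0.16 ± 0.055 (adjusted p = 0.0273). That call was lost over 5 libraries with offsets for transcript length and GC content (log2 fold change −0.13, edgeR adjusted p = 0.0721). Gabarapl1 had 21.9, 27.4 and 24.8 CPM with LPS+resveratrol and 20.04, 20.1 and 18.3 CPM with LPS. It was higher in each LPS+resveratrol library, at 0.34 ± 0.13 over 6 libraries (edgeR adjusted p = 0.201) and 0.41 ± 0.09 over 5 (adjusted p = 0.000543). Gabarapl2 had 16.2, 56.99 and 57.8 CPM with LPS+resveratrol, replicate 1 being the low one, and 46.02, 48.97 and 48.1 CPM with LPS. Its log2 fold change was −0.13 ± 0.42 over 6 libraries and 0.26 ± 0.071 over 5 (edgeR adjusted p = 0.885 and 0.0053), a change of sign.

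A share within the family does not depend on the scaling of a library, but it does depend on transcript length, along which LPS+resveratrol replicate 1 departed from its group. Per kilobase of transcript, Gabarap made up 73.1, 69.4 and 69.4% of the 4 transcripts with LPS+resveratrol and 76.3, 76.3 and 75.4% with LPS. Map1lc3b made up 19.2, 20.9 and 21.3% with LPS+resveratrol and 16.5, 16.2 and 16.8% with LPS. Gabarapl1 made up 5.43, 4.58 and 4.15% with LPS+resveratrol and 3.20, 3.24 and 3.20% with LPS. For these 3 genes the groups did not overlap even with replicate 1 in place, and for Gabarapl2 they did. Each of the 3 differences had p = 0.1 in a two-sided exact permutation test, the smallest value that 3 against 3 libraries allow, and Gabarapl2 had p = 1. That smallest value follows from the lack of overlap and adds nothing to it. The shares are parts of a whole, so the 3 differences are not separate results. The summed level of these 4 genes was 446.4, 663.8 and 661.3 CPM per kb with LPS+resveratrol and 693.5, 686.7 and 633.7 CPM per kb with LPS, and the groups overlapped. Map1lc3a, a further LC3 gene from a companion list, is not in the sum or the shares. It had 4.32, 21.3 and 18.2 CPM with LPS+resveratrol and 14.7, 17.1 and 14.5 CPM with LPS. Its log2 fold change was −0.078 ± 0.49 over 6 libraries and 0.35 ± 0.10 over 5 (edgeR adjusted p = 0.940 and 0.0110). Gabarapl1 shares 28.3% of its exon bases with 1700101I11Rik on the opposite strand, which has 10 counts in all.

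**Figure D2:**
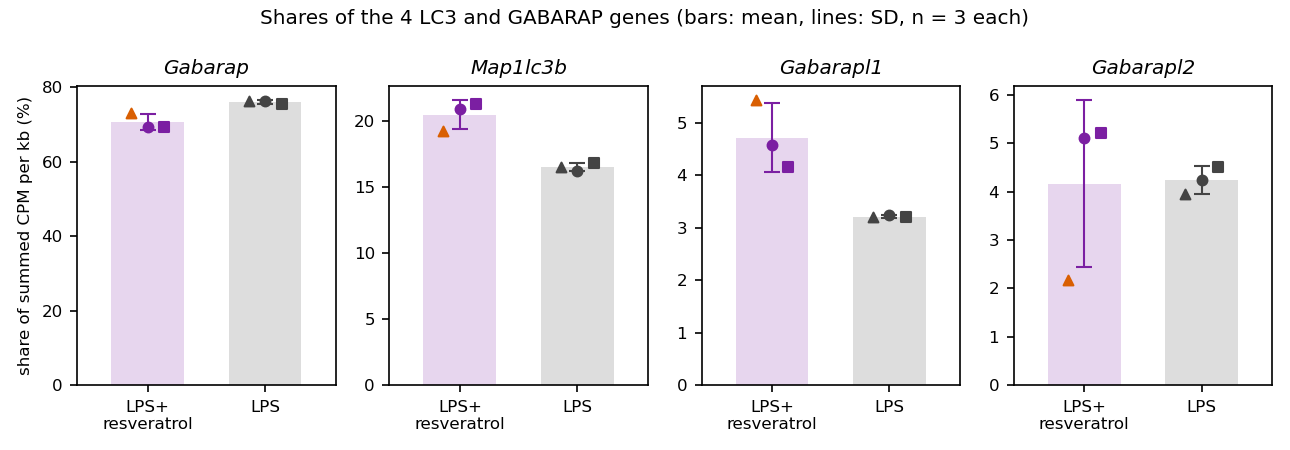
Share of each of the 4 LC3 and GABARAP genes in their summed CPM per kb (vertical axis, %), with LPS+resveratrol on the left and LPS on the right of each panel. Bars are means, lines SDs and points libraries (n = 3 each; orange is LPS+resveratrol replicate 1); the groups are separate for Gabarap, Map1lc3b and Gabarapl1.

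Autophagy receptors hold ubiquitin-marked or otherwise tagged cargo with one end and LC3 or GABARAP proteins with the other. All 5 receptor genes were higher over 5 libraries, and 1 passed over 6. Calcoco1 (ENSMUSG00000023055), known from human cells as a receptor for pieces of the endoplasmic reticulum and Golgi, was at 68.5, 49.97 and 56.8 CPM with LPS+resveratrol and 35.1, 36.3 and 31.4 CPM with LPS. Each LPS+resveratrol library was above each LPS library. The log2 fold change was 0.77 ± 0.14 over 6 libraries (edgeR adjusted p = 0.0497) and 0.63 ± 0.079 over 5 (adjusted p = 6.40e-08). The 6-library call lies at the threshold: it was lost with limma-voom (adjusted p = 0.0520) and when any 1 of the other 5 libraries was left out (edgeR adjusted p between 0.0891 and 0.273), at log2 fold changes between 0.71 and 0.87. The window before the Calcoco1 start (chr15:102722179-102722428, minus strand) held none of the 3 motifs.
Calcoco1: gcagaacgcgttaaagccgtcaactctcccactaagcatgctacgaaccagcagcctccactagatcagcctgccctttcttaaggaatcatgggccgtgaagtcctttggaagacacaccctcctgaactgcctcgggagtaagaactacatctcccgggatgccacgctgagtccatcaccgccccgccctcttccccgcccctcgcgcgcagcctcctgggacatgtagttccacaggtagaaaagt

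Sqstm1 (ENSMUSG00000015837) encodes p62, which is itself broken down by autophagy and also binds KEAP1, and it was the most abundant of the 36 genes. It had 1750.2, 2819 and 3155 CPM in the LPS+resveratrol libraries and 1856, 2079.9 and 1905 CPM in the LPS libraries. Replicates 2 and 3 stood far above all LPS libraries and replicate 1 just below them. The log2 fold change was thus 0.40 ± 0.21 over 6 libraries (edgeR adjusted p = 0.327) and 0.61 ± 0.05 over 5 (adjusted p = 1.81e-10), the smallest adjusted p of the 36 genes. Sqstm1 shares 17.3% of its exon bases with Mrnip on the opposite strand, which has 190 counts in all. Nbr1, a relative of p62 that works beside it, had 192, 119 and 118 CPM with LPS+resveratrol and 97.9, 84.3 and 94.3 CPM with LPS. The groups were separate and replicate 1 was the highest, with log2 fold changes of 0.63 ± 0.20 (edgeR adjusted p = 0.163) and 0.35 ± 0.059 (adjusted p = 1.62e-05) over 6 and 5 libraries. Tax1bp1 and Optn, receptors that also restrain or shape inflammatory signalling, had 0.18 ± 0.055 and 0.24 ± 0.08 over 5 libraries (edgeR adjusted p = 0.0103 and 0.0278) and 0.43 ± 0.18 and 0.65 ± 0.27 over 6 (adjusted p = 0.248 and 0.251). For Optn the call over 5 libraries rests on a narrow gap, since LPS+resveratrol replicate 2 had 54.8 CPM and the highest LPS library 54.6 CPM. DESeq2 and limma-voom did not call it over the same 5 libraries. Per kilobase, the 5 receptors summed to 1157, 1566 and 1744 CPM per kb with LPS+resveratrol and to 1073, 1178 and 1088 CPM per kb with LPS, and Sqstm1 made up between 74.3 and 88.8% of that sum in LPS+resveratrol libraries and between 84.9 and 86.7% in LPS libraries.

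**Figure D3:**
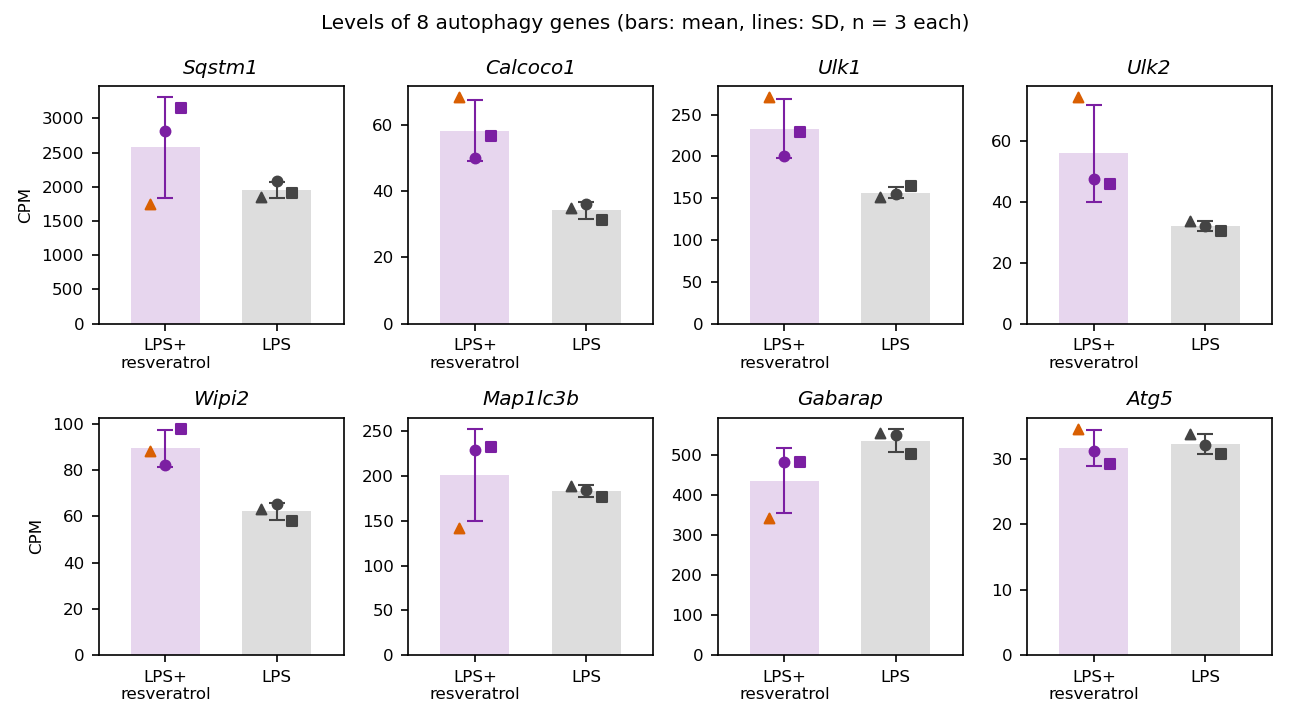
CPM (vertical axes, from 0) of 8 autophagy genes with LPS+resveratrol on the left and LPS on the right of each panel. Bars are means, lines SDs and points libraries (n = 3 each; orange is LPS+resveratrol replicate 1); Calcoco1, Ulk1, Ulk2 and Wipi2 are separate in all libraries, Sqstm1 and Map1lc3b only when replicate 1 is set aside, and Atg5 overlaps.

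The 20 genes called higher over 5 libraries were 1.14 to 1.55 times the LPS level. In LPS+resveratrol replicate 1, the library those calls did not use, 14 of the 20 lay above all 3 LPS libraries, Atg4b lay among them, and Atg101, Atg16l2, Gabarapl2, Map1lc3b and Sqstm1 lay below them. The LPS libraries are shared by both comparisons, so these positions are a description. How often replicate 1 was so placed among all tested genes was not counted, so 14 of the 20 cannot be read as agreement of replicate 1 with the calls. The log2 fold changes over 6 and 5 libraries had opposite signs for Atg2a, Atg2b, Atg4d, Becn1, Gabarapl2 and Uvrag. Of the 20 calls, 17 were also made by DESeq2 and 19 by limma-voom over the same 5 libraries, and all 20 with length and GC offsets, with unscaled totals and with median-of-ratios size factors. Among all tested genes 9.16% were called higher by DESeq2, 11.3% by limma-voom and 12.5% with those offsets over these 5 libraries. The share was 10.7% with unscaled totals and 12.6% with median-of-ratios size factors. DESeq2 left out Atg16l2, Optn and Pik3r4. Over 6 libraries, DESeq2 called Atg13, Calcoco1, Ulk1, Ulk2, Vmp1 and Wipi2 higher, and edgeR with length and GC offsets called Calcoco1, Gabarapl1, Nbr1, Ulk1, Ulk2 and Wipi2 higher. In those 6-library fits 2.93% of all tested genes were called higher by DESeq2 and 2.44% with the offsets.

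**Figure D4:**
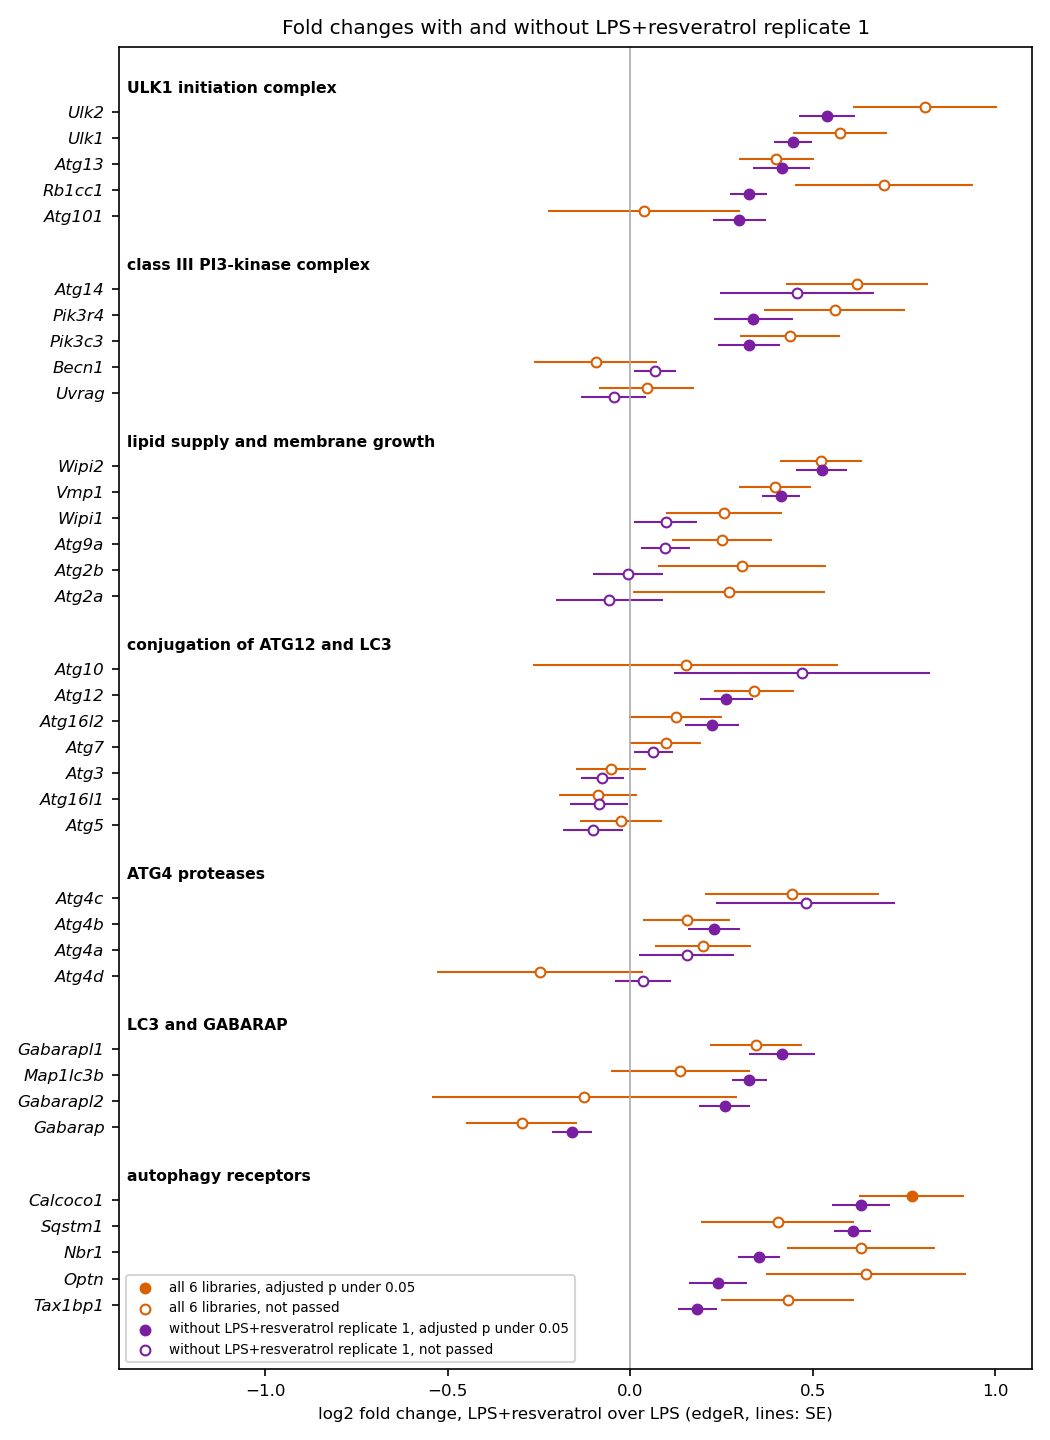
Log2 fold change of LPS+resveratrol over LPS (horizontal axis, edgeR, lines are SEs) for the 36 genes by role, over all 6 libraries (orange, upper) and without LPS+resveratrol replicate 1 (purple, lower). Filled points passed an adjusted p of 0.05, which 1 gene did over 6 libraries and 21 genes did over 5.

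The departure of LPS+resveratrol replicate 1 from its group went with transcript length. The lengths of the 36 genes, as medians over coding transcripts in GENCODE M21, run from 902 bases in Gabarapl1 to 7607 bases in Rb1cc1. For the 7 genes under 2 kb, replicate 1 lay below the mean of replicates 2 and 3 in all 7, with a median deviation of −0.70 on the log2 scale. For the 16 genes of 2 to 4 kb the median deviation was 0.090, and for the 13 genes over 4 kb it was 0.40. All tested genes had medians of −0.31, 0.080 and 0.34 in the same length classes. Across the 36 genes Pearson's r between this deviation and log2 length was 0.56, as a description over genes of the same libraries. Over 5 libraries the log2 fold change of the 36 genes had r = −0.0099 with log2 length, while over 6 libraries it had r = 0.41. Among all tested genes a trend with length remained over 5 libraries. Their median log2 fold changes were −0.035, −0.0073 and 0.032 from the shortest to the longest class. Of 5269 genes under 2 kb, 403 were called higher and 593 lower. The counts were 659 and 802 of 5250 genes at 2 to 4 kb, and 570 and 389 of 2927 over 4 kb. Atg4d departed from the pattern of replicate 1, with a deviation of −1.12 at a length of 5951 bases. The cause was not tested.

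**Figure D5:**
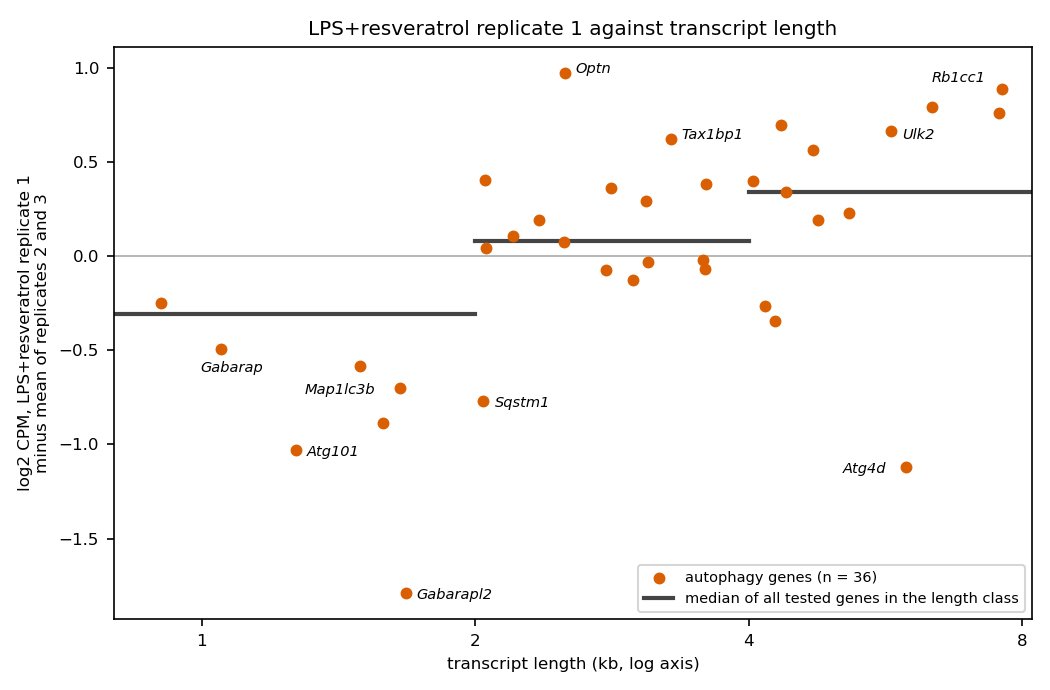
Difference in log2 CPM between LPS+resveratrol replicate 1 and the mean of replicates 2 and 3 (vertical axis) against transcript length in kb (log axis) for the 36 autophagy genes, with the median of all tested genes in 3 length classes as black lines. All 7 genes under 2 kb lie below 0, and most genes over 4 kb lie above it.

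Levels differed far more between the 36 genes than between the groups. Per kilobase, Sqstm1 was at 1264 ± 360.1 CPM per kb with LPS+resveratrol and 956 ± 57.7 CPM per kb with LPS (SD, n = 3 each). Its CPM ranked at the 99.7th percentile of tested genes. Gabarap followed with 415 ± 76.9 CPM per kb with LPS+resveratrol and 511 ± 28.2 with LPS. Map1lc3b had 122 ± 31.1 CPM per kb with LPS+resveratrol and 111 ± 3.87 with LPS, and Tax1bp1 had 139 ± 36.6 with LPS+resveratrol and 103 ± 4.10 with LPS. Map1lc3b and Tax1bp1 overlapped between libraries and changed places when the longest transcript set the length. Becn1, Vmp1 and Atg7 came next in the LPS libraries at 56.3, 56.1 and 51.3 CPM per kb, and each overlapped the next of these 3. Below Ulk1, at 35.7 CPM per kb in LPS libraries, most neighbours in the order overlapped. At the low end, Atg14, Atg4c and Atg10 stood at 0.830, 0.781 and 0.652 CPM per kb in LPS libraries and could not be set apart by their spread. By CPM, 32 of the 36 genes ranked in the upper 50% of tested genes.

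Further genes of the pathway were described in 4 companion lists, to be read beside the 12.1% higher and 13.3% lower among all tested genes over 5 libraries. Of 17 further autophagosome genes, 8 were higher, 1 was lower and 8 did not pass over 5 libraries, and 1 was higher over 6. That gene, Trp53inp1, whose protein binds LC3 and is a p53 target, had 689, 663 and 641 CPM with LPS+resveratrol and 427, 397 and 408 CPM with LPS, and a log2 fold change of 0.69 ± 0.093 over 6 libraries and 0.66 ± 0.053 over 5 (adjusted p = 0.0252 and 2.91e-12 in edgeR). The 6-library call of Trp53inp1 was lost when any 1 library other than LPS+resveratrol replicate 1 was left out (edgeR adjusted p between 0.0864 and 0.209), with the replicate number as a block (adjusted p = 0.121) and with length and GC offsets (adjusted p = 0.099). Rubcnl, which promotes autophagosome maturation, had 72.98, 65.2 and 65.8 CPM with LPS+resveratrol and 46.8, 44.8 and 48.8 CPM with LPS, and a log2 fold change of 0.54 ± 0.10 over 6 libraries (adjusted p = 0.0532) and 0.48 ± 0.07 over 5 (adjusted p = 1.38e-06). Bcl2l1, whose product BCL-XL binds Beclin 1 and blocks cell death, was the lower one, with −0.45 ± 0.11 over 6 libraries (adjusted p = 0.0899) and −0.42 ± 0.072 over 5 (adjusted p = 2.06e-05). Wdr45, a WIPI relative at 2.86 to 5.99 CPM, had 0.67 ± 0.19 over 5 libraries (adjusted p = 0.00666) and did not pass over 6 (adjusted p = 0.152). It shares 24.7% of its exon bases with Gm45208 on the same strand, which has no entry among the counted genes. The median log2 fold change of this list was 0.21 over 6 libraries and 0.22 over 5.

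Among 15 tested adaptors and receptors of selective autophagy, 5 were higher, 2 were lower and 8 did not pass over 5 libraries, and 0 passed over 6, with 3 higher and 2 lower at an unadjusted p under 0.05. Bnip3, a mitochondrial receptor, had 5.91, 7.99 and 7.09 CPM with LPS+resveratrol and 3.70, 4.42 and 4.08 CPM with LPS, separate groups, and log2 fold changes of 0.78 ± 0.18 over 6 libraries (edgeR adjusted p = 0.0804) and 0.88 ± 0.17 over 5 (adjusted p = 0.000101). Its relative Bnip3l had 0.27 ± 0.048 over 5 libraries (adjusted p = 3.07e-05) and 0.27 ± 0.088 over 6 (adjusted p = 0.168). The endoplasmic reticulum receptors Ccpg1 and Retreg1 changed in opposite directions over 5 libraries. Ccpg1 was higher at 0.61 ± 0.19 (edgeR adjusted p = 0.0163), and it shares 28.9% of its exon bases with Pigb on the opposite strand (3756 counts in all). Retreg1, also called FAM134B, was lower, with 120.0, 101 and 95.3 CPM with LPS+resveratrol and 146, 145 and 144 CPM with LPS, and a log2 fold change of −0.57 ± 0.053 (adjusted p = 8.66e-11). Over 6 libraries Ccpg1 and Retreg1 had 0.71 ± 0.21 and −0.46 ± 0.12 (edgeR adjusted p = 0.149 and 0.0993).

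Of 16 genes for fusion with lysosomes, 1 was higher, 2 were lower and 13 did not pass over 5 libraries, with a median log2 fold change of −0.013, and 0 passed over 6 (1 higher at an unadjusted p under 0.05). Stx17, the SNARE protein of autophagosomes, was higher at 0.32 ± 0.083 over 5 libraries (edgeR adjusted p = 0.00332) and had 0.44 ± 0.13 over 6 (adjusted p = 0.139). Vps18, a subunit of the tethering complexes of late endosomes, was lower at −0.24 ± 0.083 over 5 libraries (edgeR adjusted p = 0.0298), as was Rab7 at −0.24 ± 0.054 (adjusted p = 0.000931), the small GTPase of late endosomes, which is named since this list held only 3 calls. Vps18 had −0.45 ± 0.22 and Rab7 −0.17 ± 0.10 over 6 libraries, and neither passed. Tecpr2 and Vps41 had 0.29 ± 0.16 and 0.10 ± 0.083 over 5 libraries and did not pass. Of 12 genes that control autophagy genes and lysosome number, 3 were higher and 9 did not pass over 5 libraries, and 0 passed over 6 (3 higher at an unadjusted p under 0.05). Rragd, a GTPase that brings TFEB-type factors to lysosomes, had 9.96, 10.7 and 10.7 CPM with LPS+resveratrol and 7.57, 6.26 and 6.91 CPM with LPS. The groups were separate, with a log2 fold change of 0.60 ± 0.14 over 6 libraries (edgeR adjusted p = 0.0834) and 0.62 ± 0.14 over 5 (adjusted p = 0.000592). Foxo1, a transcription factor with autophagy genes among its targets, had 0.50 ± 0.12, and Zkscan3, a repressor of such genes in human cells, had 0.24 ± 0.079 over 5 libraries (edgeR adjusted p = 0.000998 and 0.0201). Over 6 libraries Foxo1 and Zkscan3 had 0.73 ± 0.19 and 0.30 ± 0.10 (edgeR adjusted p = 0.110 and 0.190). Mcoln1, the lysosomal calcium channel, had 0.16 ± 0.081 over 5 libraries and 0.19 ± 0.098 over 6 and did not pass. Tfeb itself, added after its values were seen, was at 40.6, 64.2 and 65.1 CPM with LPS+resveratrol and 58.1, 68.3 and 64.1 CPM with LPS, overlapping groups, with a log2 fold change of 0.017 ± 0.069 over 5 libraries (adjusted p = 0.892). Over 6 libraries it had −0.16 ± 0.19 (edgeR adjusted p = 0.652), so the sign turned. Nfe2l2, the gene of NRF2, was likewise added. It had 1315, 779 and 781 CPM with LPS+resveratrol and 767, 759 and 742 CPM with LPS, replicate 1 first. Its log2 fold change was 0.34 ± 0.21 over 6 libraries and 0.036 ± 0.050 over 5 (edgeR adjusted p = 0.395 and 0.657).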

How the data were processed

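The authors deposited raw counts per gene and library as integers, with no normalization applied. The submitters' processing notes name Bowtie 0.12.2 and the genome build mm8; the counting program, gene models and strand setting are each not given in the sources used here. Gene symbols, transcript lengths and exon overlaps were taken from GENCODE M21, lengths as medians over basic coding transcripts, with 25595 of 25663 IDs matched. Genes were filtered with filterByExpr (minimum count 10), which left 13468 holding at least 99.82% of each library's counts. They were tested with edgeR 4.0.16 (R 4.3.3), TMM factors and a robust two-sided quasi-likelihood test of group alone, adjusted by Benjamini-Hochberg over all tested genes. Standard errors came from the F statistic. The scripts were tested on simulated data.

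The member genes, the companion lists and the markers were chosen with earlier results of these data known. Values in every library were to be given for genes passing over 6 libraries, for the 12 with the smallest p without LPS+resveratrol replicate 1, and for Sqstm1, Map1lc3b, Ulk1, Becn1 and Atg5. Gabarap was added as the only lower one, and Atg4d, Gabarapl2, Atg14 and Atg10 to show replicate 1 or a low level. From each companion list the 4 with the smallest p were named, and Rab7, Tfeb, Nfe2l2 and Map1lc3a were added. Promoter windows came from RefSeq, with 31 of 36 genes matched, and no protein is shown.

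Alternatives were DESeq2 1.42.0, limma-voom (limma 3.58.1), library quality weights, other scalings, other filters, length and GC offsets, a replicate block and leaving out each library. Other tools and scalings combined with leaving out LPS+resveratrol replicate 1 were chosen after seeing the data. Chi-square per degree of freedom within groups was at least 3.29, so all 6 libraries were counted separately. Counts without strand cannot tell overlapping genes apart. Deviations of replicate 1 used a pseudocount of 0.5 CPM. The member with the fewest counts, Atg10, had as few as 10 in 1 library, and its precision is limited accordingly.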

Additional observations from a re-analysis of the deposited data

How the results depend on the processing

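The number of calls turns on whether LPS+resveratrol replicate 1 is used. With 1 library left out in turn, 0 to 20 autophagy genes were higher and 0 to 1 lower, and of all tested genes 0 to 1634 were higher and 0 to 1786 lower; each upper value is the one without LPS+resveratrol replicate 1. In the companion lists the same ranges were 0 to 8 higher and 0 to 1 lower for further autophagosome genes, 0 to 5 and 0 to 2 for selective autophagy, 0 to 1 and 0 to 2 for fusion, and 0 to 3 higher for control genes. Over all 6 libraries the autophagy genes called higher numbered 6 with DESeq2, 0 with limma-voom, 2 with no filter, 18 with library quality weights and 6 with length and GC offsets. Called over all tested genes were 394 higher and 451 lower with DESeq2, 89 and 151 with limma-voom, 153 and 239 with no filter, 1435 and 1487 with quality weights, and 328 and 523 with offsets. Without LPS+resveratrol replicate 1, autophagy genes called higher and lower were 17 and 1 with DESeq2, 19 and 1 with limma-voom, 20 and 1 with unscaled totals or median-of-ratios size factors, and 20 higher with offsets.

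For further autophagosome genes 2 were higher and 1 lower with DESeq2, 2 were higher with at least 50 counts in 3 samples, and 6 were higher and 1 lower with quality weights. The filter of 50 counts left 9952 genes, of which 1.29% were called higher and 1.81% lower. For selective autophagy 1 was higher and 1 lower with DESeq2, 5 and 2 with quality weights, and 1 and 2 with offsets. For fusion 1 was higher and 1 lower with quality weights, and for control genes 2 were higher with DESeq2 and 3 with quality weights.

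Signs turned for 10 genes. Atg101 had −0.039 with limma-voom and −0.034 with the replicate block; with quality weights Becn1 had 0.062, Uvrag −0.021, Atg2a −0.027, Atg4d 0.018 and Gabarapl2 0.23; and Uvrag had −0.12 with offsets. Over the comparisons that leave out 1 library, log2 fold changes ranged from −0.17 to 0.47 for Atg10, −0.18 to 0.30 for Atg101, −0.057 to 0.46 for Atg2a, −0.0068 to 0.46 for Atg2b, −0.44 to 0.034 for Atg4d, −0.10 to 0.010 for Atg5, −0.21 to 0.067 for Becn1, −0.40 to 0.26 for Gabarapl2, −0.00031 to 0.33 for Map1lc3b and −0.045 to 0.085 for Uvrag. The cause was not tested.

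The labels do not say whether libraries with the same replicate number are pairs. Same-numbered libraries had correlations of deviations of 0.020, −0.017 and 0.000, and the other pairs had between −0.046 and 0.041. With 3 libraries per group and LPS+resveratrol replicate 1 standing apart, these values cannot decide whether the libraries were paired. With the replicate number as a block edgeR called 0 of all tested genes higher and 0 lower, 0 autophagy genes and 0 further autophagosome genes, with 2287 genes at an unadjusted p under 0.05. Atg10, with 10 to 30 counts per library, had the largest standard error of the 36 genes over 5 libraries, 0.35 on the log2 scale; no detection limit was computed.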
